A study of Mus musculus with 3 samples.

Results

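The genes described here encode receptors through which sensory neurons are tuned by peptides, amines, lipids, proteases and nucleotides, together with accessory proteins of the calcitonin-type receptors. They were taken as a fixed list of 59 gene symbols, of which 58 had a row of their own among the 41388 genes counted. The exception was Galr3, a galanin receptor gene: all 1245 of its annotated exon bases (GRCm38, chromosome 15, 79041885 to 79043558) fell inside the row of the enzyme gene Gcat, so its level was not analysed here. Of the 58 genes, 55 encode G protein-coupled receptors and 3 encode RAMPs, single-pass membrane proteins that combine with the receptor CALCRL.

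G protein-coupled receptors carry signals across the membrane by activating heterotrimeric G proteins. Receptors coupled to Gi/o, such as the opioid, cannabinoid and GABA-B receptors, lower cyclic AMP, open potassium channels and close calcium channels, and so dampen neurons. Receptors coupled to Gs or Gq/11, such as those for prostaglandins, bradykinin and many itch compounds, raise cyclic AMP or calcium and make sensory endings easier to excite.

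RNA came from cells of dorsal root ganglia, which house the cell bodies of somatic sensory neurons, dissected at levels T11 to S1 from C57BL/6 mouse embryos at embryonic day 14.5 and sorted for EGFP driven by the Ret locus. Ret encodes the receptor tyrosine kinase for GDNF family ligands. The genotype label is Tg(Ret-EGFP)SJ, while the series design describes heterozygotes with EGFP knocked into the Ret locus (strain C57BL/6J). The 3 libraries form 1 group with no unsorted or EGFP-negative control: A pooled 100 ganglia of 5 embryos, B 100 ganglia of 6 embryos and D 80 ganglia of 4 embryos, of both sexes in each pool. Their total counts were 20181558, 20355302 and 29061086. Levels are given as TPM, the usual length-normalised abundance in which each count is divided by the gene's exon length (1180 to 8037 bases here) before scaling, so that genes can be compared within a library. Values are means over the 3 libraries ± SD (n = 3) unless a library is named. In bulk RNA a low level cannot tell fewer expressing cells from less RNA per cell.

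The sorted cells carried the markers of sensory neurons: all 10 genes of a marker list, among them Tubb3, Isl1, Pou4f1 and Avil, reached 1 TPM, with a summed level of 43550 TPM in A, 38452 TPM in B and 38002 TPM in D. The spinal cord markers Olig2, Mnx1 and Lbx1 had no counts. Of the markers of other cell types, 7 of 8 glial genes reached 1 TPM (summed level 490 to 879 TPM), as did 6 of 7 mesenchymal genes (19.2 to 70.6 TPM), 4 of 5 erythroid genes (65.0 to 260 TPM), 3 of 7 macrophage genes (7.67 to 18.7 TPM), 2 of 4 sympathetic neuron genes (1.99 to 7.56 TPM) and 1 of 7 endothelial genes (4.12 to 5.59 TPM). Among the endothelial markers, Tie1 had no counts in B.

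Promoter sequences are shown for 8 genes that span the range of levels: the highest receptor gene (F2r), 4 further well-expressed receptor genes (Ptgir, Htr7, Oprl1, Mrgprx1), and 3 that were low or without counts (Oprm1, Vipr1, Mrgprb4), so that Oprl1 and Oprm1 of the opioid family and Mrgprx1 and Mrgprb4 of the Mrgpr cluster stand side by side. They come from RefSeq, build GRCm38.p6, and run 5′ to 3′ on the gene's strand over 300 bases, from 250 before to 50 after the start site. Each is the first listed window of its gene, and Oprl1 and Oprm1 have 3 listed windows each. The further windows of Oprm1, not shown, begin downstream at positions 6788320 and 6788326 of chromosome 10 and hold 4 and 5 CpG sites. Which start site these cells use was not tested. CpG dinucleotides, the sites of DNA methylation in mammals, are in capitals. The windows are F2r at chr13:95618417-95618716 (minus strand), Ptgir at chr7:16906240-16906539 (plus strand), Htr7 at chr19:36057311-36057610 (minus strand), Oprl1 at chr2:181714766-181715065 (plus strand), Oprm1 at chr10:6758343-6758642 (plus strand), Vipr1 at chr9:121642466-121642765 (plus strand), Mrgprx1 at chr7:48027548-48027847 (minus strand), Mrgprb4 at chr7:48199129-48199428 (minus strand).

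F2r: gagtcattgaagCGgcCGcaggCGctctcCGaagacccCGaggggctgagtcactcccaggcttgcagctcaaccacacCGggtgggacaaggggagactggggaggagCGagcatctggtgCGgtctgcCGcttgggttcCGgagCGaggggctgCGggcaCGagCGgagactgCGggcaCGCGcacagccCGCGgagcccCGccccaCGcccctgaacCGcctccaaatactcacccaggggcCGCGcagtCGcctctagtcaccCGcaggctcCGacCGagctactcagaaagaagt
Ptgir: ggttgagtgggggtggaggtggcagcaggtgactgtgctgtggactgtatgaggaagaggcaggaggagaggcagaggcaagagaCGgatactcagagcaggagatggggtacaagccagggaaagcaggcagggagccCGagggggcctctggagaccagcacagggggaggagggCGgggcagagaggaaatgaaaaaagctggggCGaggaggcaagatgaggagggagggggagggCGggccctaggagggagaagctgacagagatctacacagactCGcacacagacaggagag
Htr7: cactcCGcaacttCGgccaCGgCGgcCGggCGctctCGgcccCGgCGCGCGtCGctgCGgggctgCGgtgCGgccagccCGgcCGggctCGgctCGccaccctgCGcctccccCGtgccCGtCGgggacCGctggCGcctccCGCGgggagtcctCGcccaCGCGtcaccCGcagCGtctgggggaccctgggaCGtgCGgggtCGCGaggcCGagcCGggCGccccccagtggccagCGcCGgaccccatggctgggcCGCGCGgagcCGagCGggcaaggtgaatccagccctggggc
Oprl1: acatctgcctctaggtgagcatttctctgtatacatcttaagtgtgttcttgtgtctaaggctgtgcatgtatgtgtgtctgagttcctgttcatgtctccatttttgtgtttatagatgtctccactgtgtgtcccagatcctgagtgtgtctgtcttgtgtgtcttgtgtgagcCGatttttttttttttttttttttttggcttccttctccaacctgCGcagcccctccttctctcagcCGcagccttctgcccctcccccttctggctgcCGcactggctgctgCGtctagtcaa
Oprm1: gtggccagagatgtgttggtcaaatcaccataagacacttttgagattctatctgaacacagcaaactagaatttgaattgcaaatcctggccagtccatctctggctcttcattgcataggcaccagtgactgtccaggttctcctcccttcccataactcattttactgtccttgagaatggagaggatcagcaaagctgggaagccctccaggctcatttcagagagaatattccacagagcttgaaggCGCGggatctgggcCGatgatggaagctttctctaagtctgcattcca
Vipr1: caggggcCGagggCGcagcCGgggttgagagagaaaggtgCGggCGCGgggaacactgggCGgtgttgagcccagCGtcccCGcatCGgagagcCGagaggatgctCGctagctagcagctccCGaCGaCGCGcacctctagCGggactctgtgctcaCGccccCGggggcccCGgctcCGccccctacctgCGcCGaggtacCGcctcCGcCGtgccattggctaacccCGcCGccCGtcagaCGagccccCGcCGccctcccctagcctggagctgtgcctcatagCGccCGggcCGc
Mrgprx1: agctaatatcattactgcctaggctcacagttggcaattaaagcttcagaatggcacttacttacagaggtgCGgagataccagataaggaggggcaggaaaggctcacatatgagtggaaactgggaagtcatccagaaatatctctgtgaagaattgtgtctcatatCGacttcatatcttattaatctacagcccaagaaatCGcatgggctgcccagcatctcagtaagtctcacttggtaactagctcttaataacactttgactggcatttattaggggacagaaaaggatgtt
Mrgprb4: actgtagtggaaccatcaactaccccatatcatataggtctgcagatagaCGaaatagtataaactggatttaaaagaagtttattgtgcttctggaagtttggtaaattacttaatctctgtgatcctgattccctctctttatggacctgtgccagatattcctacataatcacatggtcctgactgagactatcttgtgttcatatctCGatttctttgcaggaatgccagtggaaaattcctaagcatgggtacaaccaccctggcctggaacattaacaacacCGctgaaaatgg

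Every window carried CpG sites, from 3 in those of Oprm1, Mrgprx1 and Mrgprb4 to 46 in that of Htr7. The window of Ptgir held 6, Oprl1 5, F2r 28 and Vipr1 35.

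Of the 58 genes, 31 (53.4%) reached a mean of 1 TPM, the level taken here as expressed, against 33.6% of all deposited genes and 55.5% of protein-coding genes. The share was therefore close to that of coding genes in general. In every library at least 1 TPM was found for 24 genes (41.4%), against 30% of all deposited genes, coding or not. The share for coding genes alone was not counted, so 41.4% cannot be read as an excess. Of the 31 genes with a mean of 1 TPM, 24 thus reached it in every library. Over all deposited genes, 12426 of 13897 did so. Only 1 gene passed 100 TPM and 11 passed 10 TPM. At the counting floor, meaning at most 3 counts in each library, stood 8 genes (13.8%), against 54.1% of all deposited genes and 29.5% of coding genes. Of these, 3 (5.17%) had no counts at all, against 40.2% and 20.5%. The remaining 19 genes lay below 1 TPM but had more than 3 counts in a library. Just inside the 1 TPM threshold was Mrgprd (1.18 ± 1.19 TPM) and just outside it Sstr4 (0.902 ± 0.830 TPM).

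**Figure D1:**
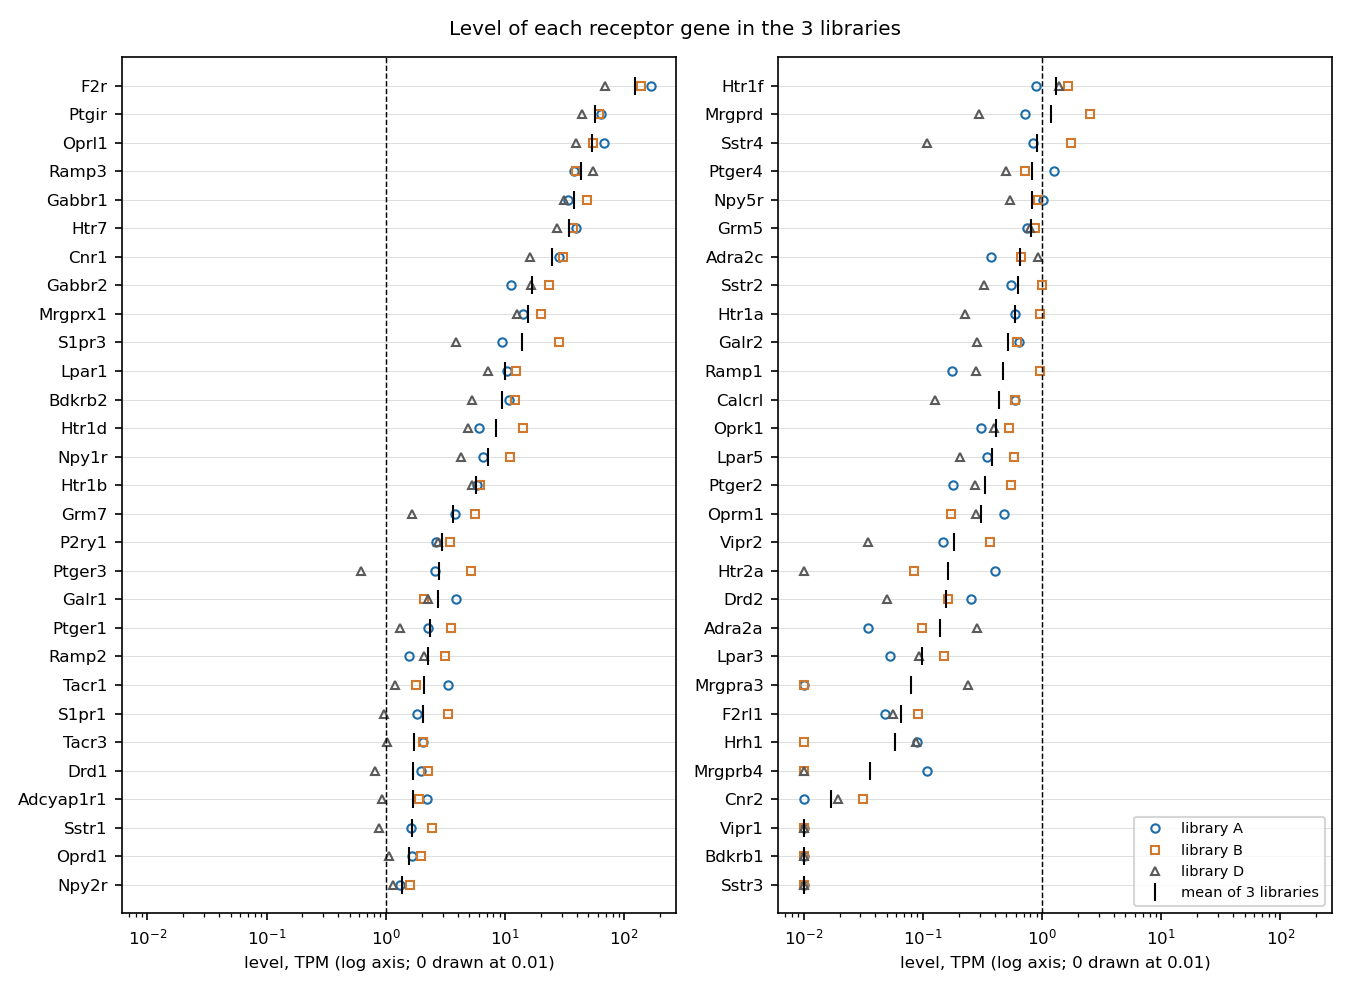
Level of each of the 58 genes in TPM (horizontal log axis, with 0 drawn at 0.01) in libraries A, B and D, with a bar at the mean of the 3 and a dashed line at 1 TPM; genes run down the left panel and then the right one by falling mean. F2r stands highest at 124 TPM, 31 genes have a mean of at least 1 TPM, and Vipr1, Bdkrb1 and Sstr3 are at 0 in every library.

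The 31 expressed genes were sorted by mean level, and each was compared with the next. Of the 30 pairs of neighbours, 27 differed by less than 1 SD of their within-library log2 ratio. Sorting itself places similar levels side by side, so this number cannot tell a gradual slope from steps. The 3 differences beyond 1 SD lay between F2r and Ptgir (log2 ratio 1.06 ± 0.37), between Htr7 and Cnr1 (0.51 ± 0.23) and between Htr1b and Grm7 (0.80 ± 0.79, barely beyond it), each in 3 of 3 libraries. By G protein coupling, 15 of 26 genes for Gi/o-coupled receptors, 4 of 9 for Gs-coupled ones and 7 of 13 for Gq/11-coupled ones were expressed. The share was 53.4% for all 58 genes and 55.5% for protein-coding genes in general. The classes are small, and differences between them were not tested. Of the 7 genes whose receptors use several G proteins or were left unassigned, 3 were expressed, as were 2 of the 3 RAMP genes. The median level was 1.43 ± 0.46 TPM for Gi/o, 0.829 ± 0.397 TPM for Gs and 1.11 ± 0.59 TPM for Gq/11.

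Opioid receptors were represented mainly by the nociceptin receptor. Oprl1 (ENSMUSG00000027584, GRCm38.p2, chromosome 2, 181715016 to 181720985, plus strand), whose ligand is the peptide nociceptin, had 67.6 TPM in A, 55.1 TPM in B and 39.6 TPM in D, from 1923, 1646 and 1921 counts. Oprm1 (ENSMUSG00000000766, chromosome 10, 6758506 to 7038198, plus strand), the receptor of morphine and the main target of opioid painkillers, had 0.476, 0.172 and 0.279 TPM in A, B and D, from 29, 11 and 29 counts. Every Oprl1 value was above every Oprm1 value. Oprl1 exceeded Oprm1 186-fold (log2 ratio 7.54 ± 0.68, 3 of 3 libraries, exact sign-flip p = 0.25, adjusted p = 0.325). With 3 libraries this two-sided permutation test cannot give a p below 0.25, so no ratio reported here can pass 0.05.

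Oprd1, the enkephalin-preferring delta receptor gene, reached 1.67, 1.97 and 1.06 TPM in A, B and D. It stood above Oprm1 in 3 of 3 libraries (log2 ratio of Oprm1 to Oprd1 -2.42 ± 0.95, exact p = 0.25). Oprk1, the receptor gene for dynorphin, averaged 0.412 ± 0.113 TPM and did not differ from Oprm1 by more than the spread (log2 ratio of Oprm1 to Oprk1 -0.50 ± 1.13, exact p = 0.75). Without B this ratio was 0.061, in the other direction. The deposited model of Oprm1 is the longest of the 58 at 8037 bases, and 96 of its exon bases also belong to Ipcef1 on the opposite strand.

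Galanin receptors were low although the cells held much galanin RNA. Galr1 (chromosome 18, 82392496 to 82406777, minus strand), a Gi/o-coupled receptor gene, had 3.90, 2.10 and 2.26 TPM in A, B and D. Galr2, which couples to Gq/11, stayed below 1 TPM at 0.644, 0.614 and 0.283 TPM. Gal, the gene of the peptide itself, reached 1332 ± 219 TPM. All Gal values lay far above those of both receptor genes.

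Of the neuropeptide Y receptors, Npy1r was the highest. Npy1r had 6.49, 11.02 and 4.27 TPM in A, B and D, against 1.33, 1.60 and 1.14 TPM for Npy2r, the presynaptic type. Npy1r was 5.02-fold above Npy2r (log2 ratio of Npy2r to Npy1r -2.33 ± 0.44, 3 of 3 libraries, exact p = 0.25). Npy5r averaged 0.828 ± 0.259 TPM. The level of Npy itself was 7.08 ± 2.12 TPM, within the range of Npy1r.

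Somatostatin receptors, which couple to Gi/o, were scarce. Sstr1 was the only expressed one of 4, with 1.61, 2.45 and 0.869 TPM in A, B and D. Sstr4 had 0.834, 1.76 and 0.109 TPM, a range that crossed the threshold in B and that rested on 9, 20 and 2 counts. Sstr2 averaged 0.625 ± 0.341 TPM. Sstr3 had no counts, which allows up to 0.101 TPM in A, 0.0959 TPM in B and 0.0590 TPM in D. Sst, the ligand gene, reached 11.1 ± 8.89 TPM and was highest in B.

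The tachykinin receptor genes Tacr1, for substance P, and Tacr3, for neurokinin B, were both expressed at low levels. Tacr1 had 3.31, 1.80 and 1.20 TPM in A, B and D, and Tacr3 had 2.03, 2.07 and 1.03 TPM. Their ranges overlapped, and the ratio was within its spread (log2 ratio of Tacr1 to Tacr3 0.24 ± 0.45, exact p = 0.5). Tac1, which encodes substance P, stood higher at 32.3 ± 13.3 TPM, whereas Tac2, which encodes neurokinin B, averaged 0.196 ± 0.222 TPM.

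The receptor system for calcitonin gene-related peptide (CGRP) was uneven. CALCRL with RAMP1 forms the CGRP receptor, while CALCRL with RAMP2 or RAMP3 binds adrenomedullin. Calcrl had 0.594, 0.592 and 0.127 TPM in A, B and D, from 22, 23 and 8 counts, and Ramp1 had 0.175, 0.956 and 0.281 TPM, from 4, 23 and 11 counts. Ramp3 (ENSMUSG00000041046, chromosome 11, 6658521 to 6677475, plus strand) was much higher in every library, at 37.6, 39.2 and 54.3 TPM. It was the single expressed gene of the 31 that had its highest value in D. Calcr, the calcitonin receptor gene with which RAMPs also combine, was in the list of related receptors but not among the 16 of its 60 genes that reached 1 TPM. Calca, which encodes CGRP, stood at 203 ± 57.6 TPM and Adm, which encodes adrenomedullin, at 0.481 ± 0.25 TPM.

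Ramp2 had 1.56, 3.12 and 2.08 TPM in A, B and D. Of its exon bases, 33.4% also belong to the row of Vps25 on the same strand, so its reads cannot be fully separated. Endothelial cells are a known site of Calcrl, Ramp2 and S1pr1; the endothelial markers summed to 5.59, 5.03 and 4.12 TPM in A, B and D, with Pecam1 the only one to reach a mean of 1 TPM. The part of endothelial RNA in these levels was not tested.

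Among the receptors for PACAP and VIP, only Adcyap1r1, which is selective for PACAP, was expressed, at 2.20, 1.90 and 0.925 TPM in A, B and D. Vipr2 averaged 0.183 ± 0.168 TPM. Vipr1 had no counts, which allows up to 0.0711, 0.0677 and 0.0417 TPM, although its promoter window shown above is among those richest in CpG. Adcyap1, the PACAP gene, reached 27.9 ± 5.91 TPM and Vip 2.00 ± 1.44 TPM.

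**Figure D2:**
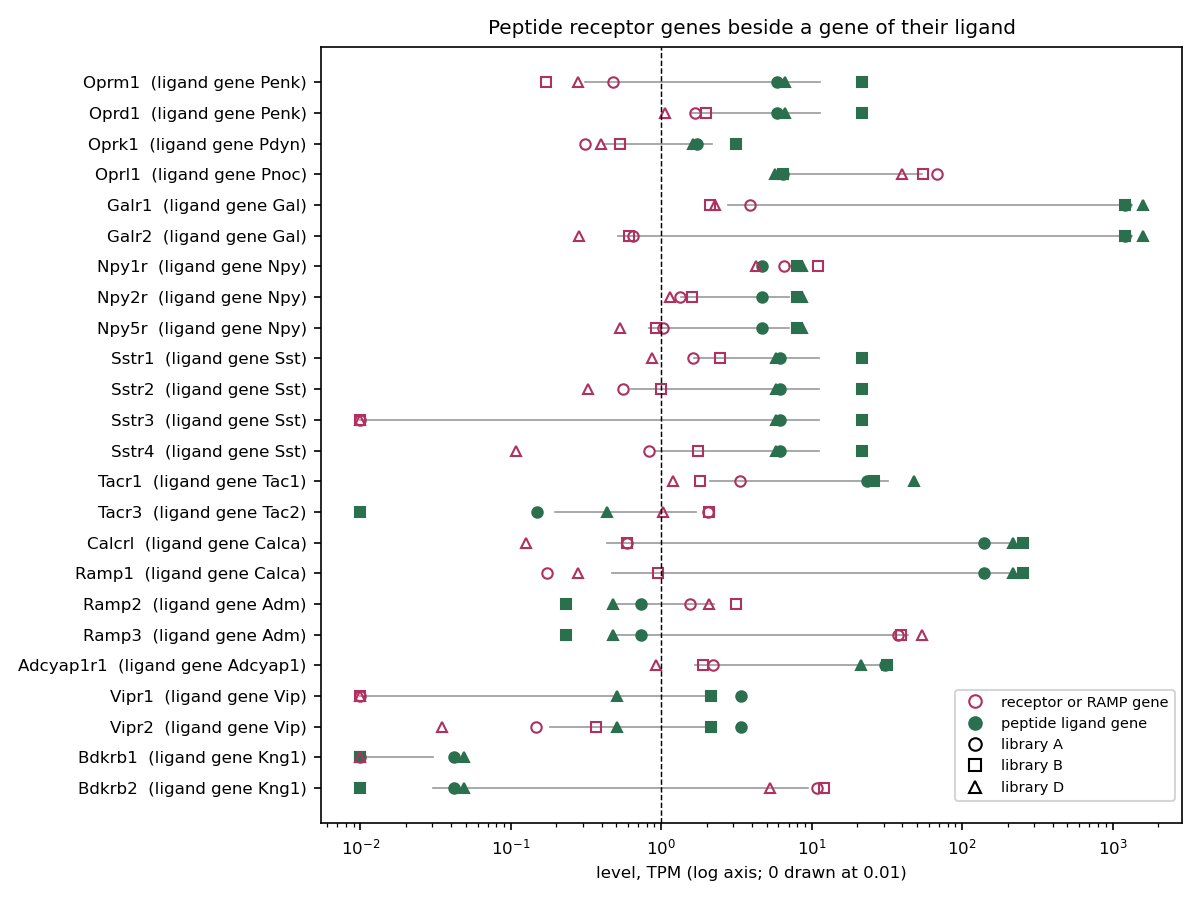
Level in TPM (horizontal log axis, 0 drawn at 0.01) of all 24 peptide receptor and RAMP genes (open red), each with 1 gene of its ligand (filled green), in libraries A (circles), B (squares) and D (triangles); grey lines join the means of the 3 libraries and the dashed line marks 1 TPM. In 17 pairings the receptor or RAMP gene lies below the ligand gene in every library, and in 5 (Oprl1, Tacr3, Ramp2, Ramp3 and Bdkrb2) it lies above. The pairings were chosen after values were seen.

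Each of the 24 peptide receptor and RAMP genes was set beside 1 gene of its ligand. The receptor or RAMP gene was the lower one in every library in 17 pairings and the higher one in every library in 5. Oprl1 was among the 5: its values, from 39.6 to 67.6 TPM, were all above those of Pnoc, the nociceptin precursor gene (5.66 to 6.42 TPM). The others were Tacr3 with Tac2, Ramp2 and Ramp3 with Adm, and Bdkrb2 with Kng1, a precursor gene of bradykinin that had at most 2 counts in a library. Npy1r was higher than Npy in 2 of 3 libraries, and Bdkrb1 and Kng1 were both at the counting floor. Pairings that name the same ligand gene share its values, so the 24 are not independent. The ligand gene of each pairing was chosen after values were seen, and the numbers above depend on that choice. Of 19 genes of peptide ligands, 13 reached 1 TPM and 2 stood at the counting floor. RNA levels of a precursor and of its receptor do not give amounts of peptide or protein.

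The receptor genes for cannabinoids and GABA were among the most abundant. Cnr1, the neuronal cannabinoid receptor gene, had 28.2, 30.5 and 16.2 TPM in A, B and D, against 0, 1 and 1 counts of Cnr2, the receptor gene of immune cells. Gabbr1 and Gabbr2 encode the obligate subunits of the GABA-B receptor, in which GABBR1 binds GABA and GABBR2 activates the G protein. Gabbr1 had 33.6, 48.5 and 31.3 TPM, and Gabbr2 had 11.3, 23.2 and 16.5 TPM. The groups of values did not overlap, and Gabbr1 was 2.28-fold above Gabbr2 (log2 ratio 1.19 ± 0.34, 3 of 3 libraries, exact p = 0.25). The cannabinoid-degrading enzyme gene Mgll stood at 54.0 ± 17.4 TPM and the synthesising enzyme gene Daglb at 20.0 ± 5.32 TPM, whereas Gad1 and Gad2, which make GABA, stayed at 0.104 ± 0.124 and 0.0186 ± 0.0219 TPM.

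Metabotropic glutamate receptors were lower. Grm7, the Gi/o-coupled presynaptic type, had 3.79, 5.63 and 1.65 TPM in A, B and D, and Grm5, the Gq/11-coupled type, had 0.745, 0.867 and 0.795 TPM. Grm7 exceeded Grm5 4.10-fold (log2 ratio 2.03 ± 0.86, 3 of 3 libraries, exact p = 0.25). Of the Grm genes outside the list of 59, Grm8 was higher than both at 25.6 ± 7.70 TPM.

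Among prostanoid receptors the prostacyclin receptor gene led. Ptgir (ENSMUSG00000043017, chromosome 7, 16906490 to 16910905, plus strand), which couples to Gs, had 64.1, 61.7 and 44.3 TPM in A, B and D, the highest mean of the list after F2r. In A Oprl1 was higher and in D Ramp3, and Ptgir and Oprl1 did not differ beyond their spread. The genes for prostaglandin E2 receptors were far lower. Ptger3 (Gi/o) had 2.57, 5.18 and 0.623 TPM, Ptger1 (Gq/11) 2.26, 3.52 and 1.32 TPM, and Ptger4 (Gs) 1.27, 0.718 and 0.5 TPM. Ptger2 averaged 0.332 ± 0.190 TPM.

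Comparisons among them were limited by shared sequence. Ptger4 lay below Ptger3 in 3 of 3 libraries (log2 ratio -1.40 ± 1.31, exact p = 0.25), but the order turned as CPM, without correction for length (0.26). The reads of Ptger1 may not be fully separable from those of other genes. Of the exon bases of Ptger4, 15.3% also belong to the pseudogene Gm15937 on the opposite strand. Ptgs2, the inducible cyclooxygenase gene, had no counts, Ptgs1 averaged 0.348 ± 0.381 TPM and the prostacyclin synthase gene Ptgis 0.580 ± 0.305 TPM.

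The serotonin receptor genes were led by Htr7. Htr7 (ENSMUSG00000024798, chromosome 19, 35958734 to 36057507, minus strand), which couples to Gs, had 39.2, 37.4 and 27.4 TPM in A, B and D. Htr1d and Htr1b encode Gi/o-coupled receptors that are the targets of triptans, drugs against migraine. Htr1d had 6.10, 14.2 and 4.85 TPM, and Htr1b had 5.81, 6.11 and 5.27 TPM. Htr7 was 5.98-fold above Htr1b (log2 ratio of Htr1b to Htr7 -2.58 ± 0.19, 3 of 3 libraries, exact p = 0.25).

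Htr1d and Htr1b could not be ordered, with a log2 ratio of 0.39 ± 0.72 (exact p = 0.75) that was -0.024 without B and -0.17 as CPM. Of the exon bases of Htr1b, 18.04% overlap the antisense gene D430036J16Rik. Htr1f, another triptan target, averaged 1.31 ± 0.385 TPM and lay below Htr1d in 3 of 3 libraries (log2 ratio of Htr1d to Htr1f 2.56 ± 0.67, exact p = 0.25). Htr1a averaged 0.594 ± 0.368 TPM and Htr2a had 9, 2 and 0 counts in A, B and D.

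Receptors for other amines were near or below the threshold. Drd1, the Gs-coupled dopamine receptor gene, had 1.98, 2.28 and 0.811 TPM in A, B and D, whereas Drd2 had 3, 2 and 1 counts. Adra2c averaged 0.653 ± 0.274 TPM, and Adra2a, the other alpha-2 adrenergic receptor gene, had 1, 3 and 14 counts, most of them in D. Hrh1, the histamine receptor gene of antihistamine-sensitive itch, had 3, 0 and 5 counts. Th, the rate-limiting enzyme gene of catecholamine synthesis, reached 60.9 ± 13.9 TPM, Dbh, which makes noradrenaline, 2.47 ± 1.35 TPM, and the histamine-synthesising gene Hdc 0.12 ± 0.0934 TPM.

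Protease receptors showed a very wide contrast between relatives. F2r (ENSMUSG00000048376, chromosome 13, 95601804 to 95618459, minus strand), the thrombin receptor gene, was the highest of all 58 genes, at 166, 137 and 69.4 TPM in A, B and D, from 4172, 3611 and 2969 counts. All 3 values were above those of every other gene in the list. F2rl1, the receptor gene for trypsin and mast cell tryptase, stood at the counting floor with 1, 2 and 2 counts. Per unit of length and over all libraries F2r had 1791 times the counts of F2rl1, with an exact binomial 95% interval of 767 to 5516 that covers counting error only. A further member of this family outside the list, F2rl2, reached 37.8 ± 6.92 TPM.

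The bradykinin receptors split in the same manner. Bdkrb2, the constitutive Gq/11-coupled receptor gene, had 10.8, 12.1 and 5.24 TPM in A, B and D. Bdkrb1, known as the type induced by inflammation, had no counts, which allows up to 0.276, 0.263 and 0.162 TPM. Set against that floor of 3 counts per library, Bdkrb2 was at least 32.5-fold higher in D, where the bound was lowest.

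P2ry1, a Gq/11-coupled receptor gene for ADP, had 2.65, 3.46 and 2.76 TPM in A, B and D, one of the steadiest levels of the list. Of its annotated 50-base stretches, 22.0% also occur in the transcript of Gm37035, so its reads may not be fully separable.

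The Mrgpr genes encode receptors of nociceptors and itch neurons, and most of the family is known from postnatal subtypes. Mrgprx1 (ENSMUSG00000070552, chromosome 7, 48020971 to 48027597, minus strand) was clearly expressed at 14.2, 20.0 and 12.6 TPM in A, B and D, from 127, 188 and 193 counts. Mrgprd, a marker of non-peptidergic nociceptors in the adult, had 0.719, 2.54 and 0.297 TPM, above the threshold in B alone, and its mean without B was 0.508 TPM. Mrgpra3, an itch receptor gene, had counts in D alone, where it had 4, and Mrgprb4, known from stroking-sensitive neurons, had 1 count in A and none elsewhere. Of the 50-base stretches of the transcripts, 5.84% of those of Mrgprx1 and 7.14% of those of Mrgpra3 occur in transcripts of other genes, all of them Mrgpr relatives, pseudogenes or predicted genes. Among Mrgpr genes outside the list, Mrgpre reached 28.3 ± 9.09 TPM.

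Lipid receptors formed the last group. Lpar1, the main lysophosphatidic acid receptor gene of Schwann cells, had 10.4, 12.4 and 7.24 TPM in A, B and D, Lpar5 averaged 0.377 ± 0.190 TPM and Lpar3 stood at the floor with 1, 3 and 3 counts. The glial markers summed to 490, 785 and 879 TPM in A, B and D, an order that differed from that of Lpar1, and the part of glial RNA in Lpar1 was not tested. S1pr3, a sphingosine-1-phosphate receptor gene, had 9.38, 28.4 and 3.84 TPM, and S1pr1 had 1.83, 3.32 and 0.969 TPM. S1pr3 exceeded S1pr1 5.58-fold (log2 ratio 2.48 ± 0.56, 3 of 3 libraries, exact p = 0.25). Both were highest in B and lowest in D. Enpp2, which makes lysophosphatidic acid, stood at 5.24 ± 1.64 TPM and Sphk2, which makes sphingosine-1-phosphate, at 16.3 ± 6.26 TPM.

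Several receptor genes lie next to a relative in the genome, and their levels differed within these clusters. F2rl1 and F2r are separated by 76.6 kb on chromosome 13 with no deposited gene between them, at 0.0651 ± 0.0230 and 124 ± 49.8 TPM. Bdkrb2 and Bdkrb1 are separated by 10.0 kb on chromosome 12, likewise with no gene between them, at 9.37 ± 3.64 TPM and no counts. Npy5r and Npy1r, which run in opposite directions from a shared intergenic stretch of 9.33 kb on chromosome 8, stood at 0.828 ± 0.259 and 7.26 ± 3.44 TPM. In the Mrgpr cluster on chromosome 7, Mrgprx1 at 15.6 ± 3.88 TPM lies 420 kb from Mrgpra3 (0.0796 ± 0.138 TPM) and 170 kb from Mrgprb4 (0.0361 ± 0.0625 TPM).

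Promoters were available for 48 of the 58 genes. Median CpG number in the first listed window of 300 bases was 14 for the 26 expressed genes, 7 for the 16 between threshold and floor and 16.5 for the 6 at the floor, compared with 13 for the 17486 protein-coding genes in the table. Median GC content was 61.8%, 56.5% and 64.5% for the 3 classes, and 56.3% for coding genes. The class medians of CpG number in these first listed windows therefore did not rise with level. Vipr1 and Oprl1 are examples from opposite ends. Several windows are listed for 11 of the 48 genes, and CpG number depends on which is taken. Over all 48 genes the median was 13.5 with the first window and 10 with every window.

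**Figure D3:**
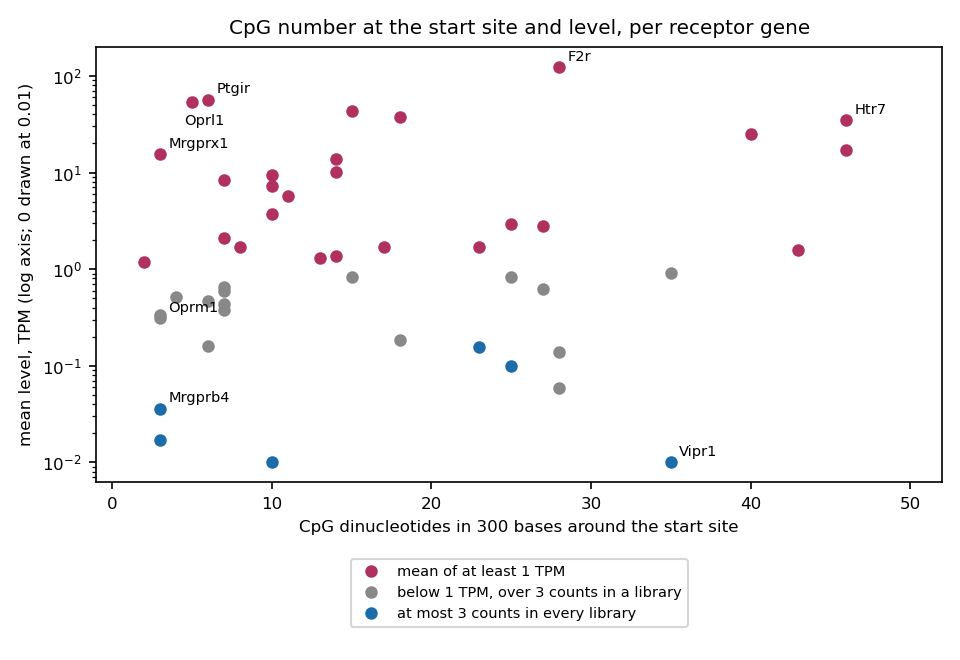
Mean level in TPM (vertical log axis, 0 drawn at 0.01) against the number of CpG dinucleotides in the first listed 300-base promoter window, 1 point for each of 48 receptor or RAMP genes, coloured by level class; the 8 genes whose windows are printed are named. The 48 genes spread from 2 to 46 CpG sites, and Vipr1 has 35 CpG sites and no counts.

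Short motifs were counted on both strands of the same windows. The GC box GGGCGG was found in 17 of 26 expressed genes (65.4%), 10 of 16 intermediate genes (62.5%) and 3 of 6 genes at the floor, and in 46.3% of coding genes. The E-box CANNTG was found in 57.7% of expressed genes and 68.8% of coding genes, and the TATA box TATAAA in 7.69% and 13.3%. The cAMP response element TGACGTCA was found in Sstr2 alone (2.08% of the 48, against 2.34% of coding genes), and its core TGACG, which the full element contains, in 8 of 48 (16.7%, against 23.8%). The homeodomain core TAATTA was found in 2.08% of the 48 and 4.68% of coding genes. These are matches of letters in a short window, and no factor binding was measured.

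In a list of 20 genes for the machinery through which these receptors act, 15 reached 1 TPM. This level was reached by 33.6% of all deposited genes and 55.5% of protein-coding genes, and the difference was not tested. The list held G protein subunits, arrestins, receptor kinases, target channels, a phospholipase C (Plcb3), an auxiliary GABA-B subunit (Kctd12) and the CGRP receptor component Crcp. Its median gene stood at 20.0 ± 4.23 TPM. Gnaq (204 ± 25.5 TPM) and Gna11 (90.05 ± 27.6 TPM) encode the Gq/11 subunits, and Gnai3 (204 ± 95.1 TPM), Gnao1 (106 ± 15.8 TPM) and Gnai2 (64.6 ± 12.3 TPM) those of Gi/o. Cacna1b, the N-type calcium channel gene closed by opioid and GABA-B receptors, stood at 22.6 ± 2.05 TPM. Of the genes for G protein-gated potassium channels, Kcnj3 reached 4.11 ± 0.995 TPM (with 31.1% of its exon bases shared with another row), Kcnj6 and Kcnj9 had at most 4 counts in a library and Kcnj5 had none. Kctd12 averaged 1.98 ± 0.330 TPM, but 64.2% of its exon bases were not unique to its row, so its reads cannot be fully separated. Gnas, which encodes the Gs subunit, was listed at 0.346 ± 0.130 TPM, from 42, 23 and 41 counts in A, B and D. Of its exon bases, 22.0% are shared with other rows, so its reads cannot be fully separated. The part of this overlap in the low counts was not tested, and the value is not read here as absence of the Gs subunit.

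The last question was how steady these levels were between the libraries. Of the 31 expressed genes, 25 (80.6%) had their lowest TPM in D, against 55.7% of all genes of at least 1 TPM, and 23 (74.2%) had their highest in B, against 34.9%. After TMM scaling, which sets the bulk of genes equal between libraries, 19 of the 30 expressed genes that passed the filter were lowest in D, against 38.8% of all genes tested, and 19 were highest in B, against 28.7%. The median difference of D from the other libraries was -0.47 (log2 CPM) over these 30 genes and -0.00 over all genes tested, and that of B was 0.39 and -0.01. Other lists moved between the libraries as well. In A, B and D the erythroid markers summed to 72.2, 65.0 and 260 TPM, the glial markers to 490, 785 and 879 TPM, and a list of 6 nociceptor genes, all of at least 1 TPM on average, to 666, 655 and 490 TPM. Their part in the low receptor levels of D was not tested. The libraries were not made as contrasting groups, and the pools differ in embryos, sexes and, for D, the number of ganglia together.

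No single gene of the list passed the test for excess variation. With edgeR's goodness-of-fit test, 0 of 35 members tested had an adjusted p under 0.05, against 0.177% of the 13530 genes tested, and 2 of 35 had an unadjusted p under 0.05, a share (5.71%) near the 6.11% of all genes. The 2 were S1pr3 and Ptger3. S1pr3 ranged 7.38-fold, with a difference of 2.07 in B and -1.74 in D from the mean of the other libraries (log2 CPM, edgeR adjusted p = 0.0793). Ptger3 ranged 8.32-fold, with 1.78 in B and -2.07 in D (edgeR adjusted p = 0.444). Without B the mean of S1pr3 was 6.61 TPM, that of Ptger3 1.59 TPM and that of Htr1d 5.48 TPM.

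The mesenchymal markers moved in B as well. Their summed level was 19.2 TPM in A, 70.6 TPM in B and 19.3 TPM in D, and none of the 7 markers was at 0. Highest in B, as was S1pr3, were 6 of the 7, with Col1a1 at 3.68, 28.4 and 2.32 TPM in A, B and D, whereas Pdgfra was highest in A. The markers did not share 1 order of A and D: Col1a1, Col1a2, Col3a1, Pdgfrb and Pdgfra were lower in D than in A, as S1pr3 was, and Lum and Dcn were higher. The part of mesenchymal RNA in the level of S1pr3 was not tested. By contrast the steadiest receptor genes were Htr7, with log2 differences of 0.12, 0.03 and -0.15 in A, B and D, Ptgir with 0.12, 0.05 and -0.17, and Htr1b with -0.14, -0.02 and 0.16.

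**Figure D4:**
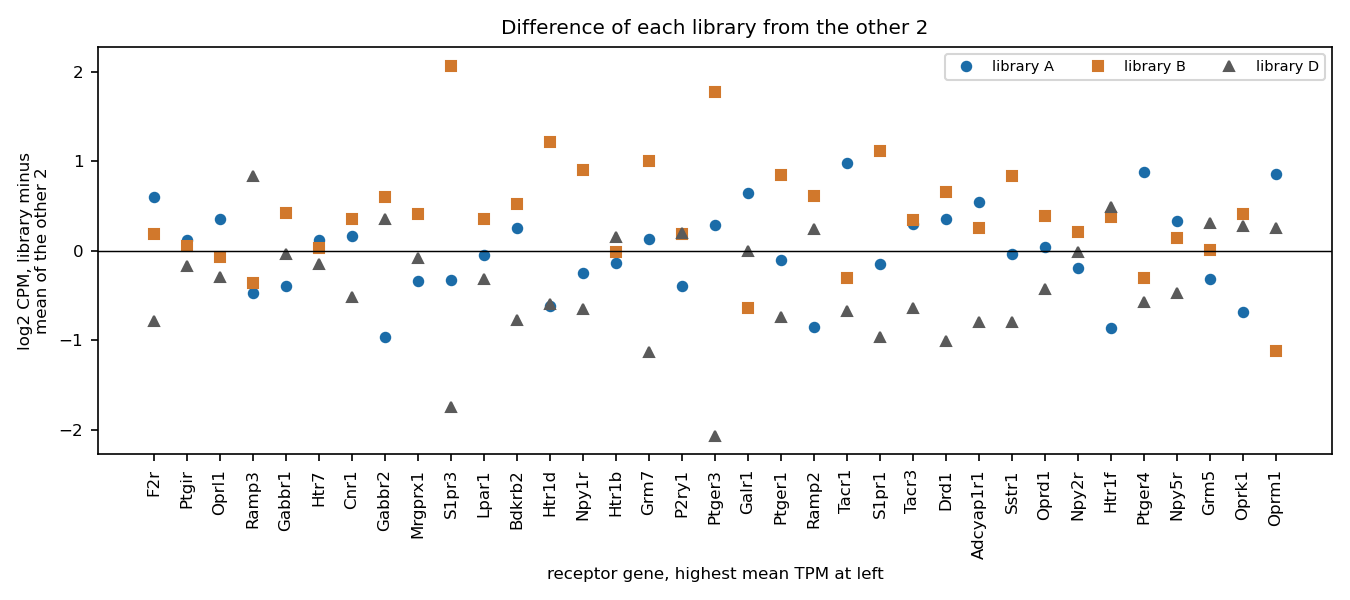
Difference of each library from the mean of the other 2, in log2 CPM after TMM scaling (vertical axis), for the 35 receptor and RAMP genes that passed the count filter, ordered from the highest mean TPM at left; 1 point per library, with a line at 0. S1pr3 and Ptger3 spread most, with 2.07 and 1.78 in B and -1.74 and -2.07 in D, while Htr7, Ptgir and Htr1b stay within 0.17 of 0.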

How the data were processed

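RNA from sorted Ret-EGFP dorsal root ganglion cells was measured in 3 pooled libraries. Amplification started from 10 ng of RNA with a SMARTer Ultra Low Input kit and used 12 PCR cycles, per the labels. Molecular identifiers are not mentioned there, so intervals and floors reflect counting error alone. The deposited counts are whole numbers for each Ensembl gene. Per the submitters' processing notes the authors used Subread and featureCounts 1.4.5 with build GRCm38.p2. Settings for strand and ambiguous reads, not given in the sources used here, could not be taken into account. Reads of overlapping, antisense and near-identical genes were thus taken as inseparable. The deposited CPM equalled the count scaled to the library total (largest difference 4.7e-11), and the deposited RPKM equalled that CPM per kilobase of gene length (2.7e-11). The pools are separate per the labels, so the SD covers pools as well as technical noise.

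TPM was computed from deposited counts and lengths. Symbols came from GENCODE M21, which matched 40254 of 41388 genes. A count of 0 was read as allowing 3 counts. Of 25 pairs of members, 13 had no gene under 10 counts in any library. An exact permutation test that flips signs, two-sided, was run on their within-library log2 ratios, adjusted over the 13 with the Benjamini-Hochberg method (adjusted p of 0.325 to 0.75). Variation between libraries was tested on all genes with edgeR 4.0.16 in R 4.3.3 (TMM, filterByExpr, intercept-only fit with trended dispersion, goodness-of-fit on 2 degrees of freedom, Benjamini-Hochberg threshold 0.05), a procedure tested on simulated data; its quasi-likelihood test needs 2 groups. Python 3.11.15, numpy 2.4.6, pandas 2.3.3, scipy 1.17.1 and matplotlib 3.10.9 did the rest. Alternatives included DESeq2 1.42.0 dispersion outliers. Every listed gene could be named; of the other lists, the highest genes and the ligands or partners of a named receptor. The members and lists were chosen with earlier results of these data known, and the pairings in the plot of ligands and the promoters shown were chosen after values were seen, as was the comparison of promoters with protein-coding genes in place of all genes. Some overlapping genes and markers are not reported here.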

Additional observations from a re-analysis of the deposited data

How the results depend on the processing

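The number of receptor and RAMP genes counted as expressed (31) was 39 at a threshold of 0.5 TPM, 23 at 2 TPM, 24 with 1 TPM required in every library, 35 at 1 CPM, and 30 to 32 with a library left out; Mrgprd fell below 1 TPM without B (0.508) and Sstr4 rose above it without D (1.30). At a deposited RPKM of at least 1 it was 19, and the list median was 0.519 in place of 1.31 TPM, because 1 TPM corresponds to 0.376 to 0.445 RPKM in these libraries; 27 of the 31 single levels moved by more than their SD for the same reason. Without B the means of Mrgprd, S1pr3, Ptger3 and Htr1d moved 2.33-, 2.10-, 1.75- and 1.53-fold. The count at the floor (8) was 3 with 0 counts required and 8 to 11 with a library left out. Of 13 ratios, 10 ran 1 way in every library, and 10 to 11 under the alternatives. Orders that turned were Oprm1 to Oprk1 without B (log2 ratios of -1.07 to 0.061 with a library left out), Ptger4 to Ptger3 as CPM (0.26), and Htr1d to Htr1b as CPM (-0.17) and without B (-0.024). With a library left out, the ratio of Htr1d to Htr1b ran from that value without B to 0.64 without D. Over all genes, the count of genes with excess variation (24) was 7 without A, 2 without B, 27 without D and 4 as DESeq2 dispersion outliers; members called were 0 in each alternative run. No paired analysis was possible because the 3 libraries form 1 group. A further 12 pairs had a gene under 10 counts in a library and were not tested as ratios.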
